A study of Homo sapiens with 104 samples.

Results

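The genes described are 52 that carry cells through the G1/S transition and copy their DNA: the MCM helicase and the factors that load and fire it, the sliding clamp and its loader, polymerases, single-strand binding proteins, enzymes that supply nucleotides, the cyclin E kinase and its phosphatase, E2F factors, and proteins that rebuild chromatin behind the fork. The list was made by symbol and role, with earlier results of these data known. A member was read from probe sets that the platform annotation gives that single symbol, and all 52 were among the 19775 genes so measured and among the 13842 that passed a filter on low levels.

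Transcripts were measured on Affymetrix arrays in human lymphoblastoid cell lines, B cells grown as permanent cultures, in mid log phase. The MNNG groups were TK6, MT1 and a panel of 24 numbered lines after MNNG (N-methyl-N'-nitro-N-nitrosoguanidine, an agent that methylates DNA), and each was set against untreated cells of the same line. Every line and condition had duplicate arrays. TK6 is an established line with 1 working allele of thymidine kinase, and MT1 is a TK6 derivative selected for resistance to alkylating agents that lacks mismatch repair. Both lack MGMT, the protein that removes methyl groups from guanine. TK6 and MT1 are 1 line each. The sources used here give neither dose nor duration of MNNG, and they do not tell whether the arrays of a pair came from separate cultures; tests within a line may thus reflect technical spread.

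Of the 52 MNNG arrays, 22 were left out (21 of the panel and MT1 MNNG replicate 1), because in them 2 probe sets of cre, a phage transcript added as a control, differed by -5.91 to -4.96 log2 units, against 0.18 to 0.83 in the other 30 MNNG arrays and 0.082 to 0.73 in the 52 untreated arrays. This left 19 panel lines, 11 of them with 1 MNNG array, both TK6 MNNG arrays, and 1 MT1 MNNG array, which was assumed to vary like the other groups. The 3' minus 5' difference of ACTB probe sets, a sign of RNA quality, was 0.13 to 0.57 (median 0.29) in the 30 kept MNNG arrays and -0.08 to 0.46 (median 0.056) in the 52 untreated arrays, and 6.25 to 7.58 in the 22 arrays left out; the kept MT1 MNNG array had the 0.57, and its part in the results was not tested. B-cell markers (9 of 10 measured) averaged 9.89 to 10.50 in panel MNNG arrays and 9.95 to 10.72 in panel untreated arrays, 9.61 to 9.71 in TK6 MNNG and 9.58 to 9.71 in TK6 untreated arrays, and 8.79 in the MT1 MNNG array and 8.66 to 8.81 in MT1 untreated arrays. The lists of T and NK, myeloid, and fibroblast and epithelial markers averaged 5.57 to 6.73 over all groups, on a scale whose lowest value is 5. In TK6 the mean levels of these 3 lists did not overlap between conditions: myeloid markers averaged 6.59 to 6.65 in MNNG arrays against 6.12 to 6.15 in untreated arrays, T and NK markers 5.62 to 5.64 against 5.72 to 5.76, and fibroblast and epithelial markers 6.28 to 6.32 against 6.46 to 6.51. Of the 5 genes tested in each list, 1 myeloid gene was called higher and 2 fibroblast and epithelial genes lower, and the part of these shifts in the TK6 results was not tested. With no array left out limma called 3 members higher and 0 lower in TK6, 0 in MT1 and 0 for the difference of the lines (at an unadjusted p below 0.05, 7, 4 and 4 members), and 15 higher and 28 lower in the panel; all values below come from the 82 kept arrays.

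In G1 the origin recognition complex, CDC6 and CDT1 load a ring of MCM proteins onto DNA, and in S phase CDC45 and the GINS complex turn that ring into an active helicase. Cyclin E with CDK2, released by the phosphatase CDC25A, starts the process, and E2F transcription factors switch on most of the genes concerned, so that their transcripts are most abundant late in G1 and in S phase. Lymphoblastoid cells divide continuously, and methylated guanine left unrepaired is mispaired at the fork, which in cells with mismatch repair leads to arrest and death after a round of replication.

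The promoters of these genes are shown because the members moved together in TK6, and E2F motifs are the feature for which such promoters are known. RefSeq windows (GRCh38.p14, 250 bases before to 50 after the start of transcription) matched 43 of the 52 members. The letters searched were TTTGGCGC, TTTCGCGC, TTTCCCGC and TTTGCCGC on both strands, where a match on one strand may overlap a match on the other. They occurred in 22 of 43 member promoters (51.2%), against 908 of all 27305 promoters (3.3%) and 557 of the 11079 promoters of genes tested here (5.0%). The letters CCAAT, a box common in cell-cycle promoters, were in 24 of 43 member promoters (55.8%) against 35.7% of all and 36.8% of those of genes tested. The letters TTTGAA or TTCGAA, a motif known from mitotic genes, were in 2 of 43 (4.7%) against 16.6% of all and 12.2% of those of genes tested. The windows below are of members that differed in their MNNG change in TK6: UHRF1 (chr19:4909251-4909550, plus strand), CDC25A (chr3:48188368-48188667, minus strand), PCNA (chr20:5126573-5126872, minus strand), GINS1 (chr20:25407423-25407722, plus strand) and MCM6 (chr2:135876394-135876693, minus strand), all called higher, and PRIM1 (chr12:56752274-56752573, minus strand), called lower. Each is written 5' to 3' on the strand of its gene, and capitals mark matches to the E2F letters.
UHRF1: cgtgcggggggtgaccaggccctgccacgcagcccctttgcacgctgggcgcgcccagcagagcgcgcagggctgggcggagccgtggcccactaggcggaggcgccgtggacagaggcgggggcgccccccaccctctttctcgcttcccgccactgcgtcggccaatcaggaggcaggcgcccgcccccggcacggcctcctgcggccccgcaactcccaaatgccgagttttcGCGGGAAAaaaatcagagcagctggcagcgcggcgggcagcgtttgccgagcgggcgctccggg
CDC25A: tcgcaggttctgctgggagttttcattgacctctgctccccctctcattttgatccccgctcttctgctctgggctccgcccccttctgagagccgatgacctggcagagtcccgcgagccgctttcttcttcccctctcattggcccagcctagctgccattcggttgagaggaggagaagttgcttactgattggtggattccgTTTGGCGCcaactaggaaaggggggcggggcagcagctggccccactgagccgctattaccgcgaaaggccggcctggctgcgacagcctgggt
PCNA: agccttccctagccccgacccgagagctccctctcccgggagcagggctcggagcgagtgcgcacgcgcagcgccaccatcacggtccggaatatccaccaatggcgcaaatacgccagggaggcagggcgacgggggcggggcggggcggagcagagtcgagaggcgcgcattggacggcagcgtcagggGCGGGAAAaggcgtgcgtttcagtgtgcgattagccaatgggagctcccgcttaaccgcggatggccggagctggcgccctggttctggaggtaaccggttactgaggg
GINS1: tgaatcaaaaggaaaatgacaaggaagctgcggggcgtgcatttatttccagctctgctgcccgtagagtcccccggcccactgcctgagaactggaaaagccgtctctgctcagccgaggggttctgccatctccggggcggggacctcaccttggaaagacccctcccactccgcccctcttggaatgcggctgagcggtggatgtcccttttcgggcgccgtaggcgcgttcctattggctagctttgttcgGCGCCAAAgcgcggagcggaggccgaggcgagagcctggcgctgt
MCM6: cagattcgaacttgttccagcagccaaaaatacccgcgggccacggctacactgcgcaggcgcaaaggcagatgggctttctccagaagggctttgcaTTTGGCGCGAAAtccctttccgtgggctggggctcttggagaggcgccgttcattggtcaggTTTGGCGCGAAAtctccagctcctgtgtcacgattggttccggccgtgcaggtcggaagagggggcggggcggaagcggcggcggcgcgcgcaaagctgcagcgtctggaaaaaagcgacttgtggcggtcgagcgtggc
PRIM1: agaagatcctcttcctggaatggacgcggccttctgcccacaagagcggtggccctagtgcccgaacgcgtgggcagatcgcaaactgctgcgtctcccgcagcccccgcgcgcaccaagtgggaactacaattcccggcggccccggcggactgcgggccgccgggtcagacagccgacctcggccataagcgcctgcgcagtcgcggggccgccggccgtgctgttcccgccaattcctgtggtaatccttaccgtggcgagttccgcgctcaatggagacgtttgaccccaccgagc
UHRF1 and PCNA each held 1 match to TTTCCCGC on the opposite strand, beginning 14 and 59 bases before the start site. CDC25A held TTTGGCGC 44 bases before its start, and GINS1 held the same letters on the opposite strand 5 bases after it. MCM6 held 4 matches in 2 overlapping pairs, at 152 and 148 and at 90 and 86 bases before the start. The PRIM1 window held none of these letters. Of the members called higher in TK6, 19 of 35 with a window (54.3%) held an E2F match, and of the others 3 of 8 (37.5%); a match describes letters and does not show that a factor binds.

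The first comparison asked how these genes answered MNNG in TK6. Most of them were higher: 42 of 52 rose and 2 fell, and the median member differed by 0.54 on the log2 scale (all genes, -0.029). The cyclin E genes, the GINS subunit GINS4, the chromatin factor UHRF1, the phosphatase CDC25A and the sliding clamp PCNA stood at the top, and the primase subunit PRIM1 and the origin protein ORC1 fell. A gene was called where limma gave an adjusted p below 0.05 over all 13842 genes; of these 41.2% were called, 21.6% higher and 19.5% lower. Both TK6 MNNG arrays lay above both untreated arrays for 46 members and below them for 2, where the same held for 32.2% and 35.8% of all genes tested. The arrays measured RNA pooled from whole cultures, so a larger share of cells in S phase and more RNA per cell cannot be told apart. Values below are levels, log2 of intensity plus 16 after quantile normalisation, and log2 changes with the standard error after ±.

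Among the regulators of S-phase entry, all 4 genes of the cyclin, kinase and phosphatase group rose. CCNE2, a cyclin E that activates CDK2, had levels of 8.67 and 8.84 in the TK6 MNNG arrays against 7.25 and 7.15 in the untreated arrays. Its paralogue CCNE1 had 7.65 and 7.61 in MNNG arrays against 6.43 and 6.36 in untreated arrays. In both genes the MNNG arrays lay more than 1 log2 unit above the untreated ones, with duplicates close together. The changes were 1.55 ± 0.16 for CCNE2 (2.94-fold, adjusted p = 4.34e-11) and 1.23 ± 0.15 for CCNE1 (2.35-fold, adjusted p = 3.77e-09). CDC25A, which removes inhibitory phosphates from CDK2, had 8.81 and 8.93 in MNNG arrays against 7.64 and 7.39 in untreated arrays, a change of 1.35 ± 0.13 (2.55-fold, adjusted p = 5.89e-12). CDK2 itself rose by less, 0.58 ± 0.14, and 2 further CDK2 probe sets gave -0.003 and -0.071 and were not called.

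The 3 E2F factors were called higher. E2F1, an activator of S-phase genes, had 7.75 and 7.46 in MNNG arrays against 6.76 and 7.15 in untreated arrays. The groups did not overlap, but untreated duplicates differed by more than in most members, and the call (0.65 ± 0.17) was lost without untreated replicate 1 (0.45, adjusted p = 0.0846), without MNNG replicate 1 (0.51, adjusted p = 0.0553), with the values as deposited (0.82, adjusted p = 0.0803) and with no array left out (0.60, adjusted p = 0.92). E2F2, another activator, changed by 0.78 ± 0.16, while a dimmer E2F2 probe set went the other way (-0.44 ± 0.14). E2F8, which represses E2F targets later in the cycle, changed by 0.42 ± 0.13.

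Of the 10 genes that license origins and activate the helicase, 9 rose and 1 fell. GINS4, a subunit of the GINS complex, had 9.44 and 8.45 in MNNG arrays against 6.39 and 7.28 in untreated arrays. Its groups lay apart and its change of 2.10 ± 0.28 (4.3-fold, adjusted p = 4e-08) was the highest of the 52 members, but its duplicates differed by about 1 unit in each condition. Further GINS4 probe sets gave 1.42 and 0.95, both called, and 0.19, not called. CDC6, which loads MCM rings, had 8.17 and 8.07 in MNNG arrays against 7.31 and 7.20 in untreated arrays, a change of 0.87 ± 0.11 (adjusted p = 1.3e-08). The other GINS subunits rose by 1.01 (GINS1), 0.67 (GINS2) and 0.54 (GINS3), ORC6 of the origin recognition complex by 1.02, and MCM10 and CDC45, which help the helicase start, by 0.48 and 0.44. ORC1, the largest subunit of the same complex, had 7.31 and 7.28 in MNNG arrays against 7.66 and 7.70 in untreated arrays, a fall of 0.39 ± 0.10 (adjusted p = 0.00241), so ORC1 and ORC6 moved in opposite directions.

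CDT1, the partner of CDC6 in loading, was uncertain. Its brighter probe set had 9.18 and 9.42 in MNNG arrays against 8.65 and 8.60 in untreated arrays (0.67 ± 0.10), and its other probe set had 8.41 and 8.02 against 8.88 and 9.48 (-0.97 ± 0.37, adjusted p = 0.0365). Both were called, in opposite directions, and the mean of the 2 gave -0.15. Across members, 29 had more than 1 probe set, and of 43 further probe sets that passed the filter 17 were called higher in TK6 and 2 lower.

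Of the 6 MCM helicase subunits, read from their brightest probe sets, 5 rose. MCM5 changed most, with 10.57 and 10.41 in MNNG arrays against 9.49 and 9.50 in untreated arrays (0.99 ± 0.18, adjusted p = 1.22e-05). MCM4 changed by 0.73, MCM7 by 0.45, MCM6 by 0.36 and MCM3 by 0.34. Further MCM4 probe sets gave 0.56, 0.56, -0.20 and -0.28, and none of them was called. Second probe sets of MCM7 (0.375) and MCM6 (0.10) were not called either, while that of MCM5 was (0.81). MCM2 was not called, with 10.02 and 9.96 in MNNG arrays against 9.91 and 10.00 in untreated arrays (0.035 ± 0.10). These subunits form 1 ring, and their differences from each other were not tested.

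At the fork, the clamp PCNA had 12.09 and 12.24 in MNNG arrays against 11.14 and 10.94 in untreated arrays, a change of 1.13 ± 0.11 (2.19-fold, adjusted p = 2.14e-11). Of the RFC subunits that load the clamp, RFC1 to RFC4 rose by 0.28 to 0.53, and RFC5 was not called (0.25 ± 0.15). A second RFC1 probe set, nearly as bright as the first, gave 0.052 ± 0.115 and was not called. FEN1, the nuclease that trims Okazaki fragments, had 10.11 and 10.15 in MNNG arrays against 9.07 and 9.06 in untreated arrays. Its duplicates lay close together in both conditions, and its change of 1.07 ± 0.056 had the lowest adjusted p of the members (1.67e-19). LIG1, which seals the fragments, rose by 0.54 ± 0.15. RPA1 and RPA2 of the single-strand binding complex rose by 0.90 and 0.78, and the third subunit, RPA3, was not called (-0.051 ± 0.073). TIPIN, which protects stalled forks, rose by 0.61 ± 0.078.

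Of the 8 polymerase and primase genes, 3 were called higher and 1 lower. POLA1 and POLA2 of the priming polymerase rose by 0.65 and 0.34, and POLE2 of the leading-strand polymerase by 0.36. POLE, POLD1, POLD3 and PRIM2 were not called (0.20, -0.35, -0.056 and 0.47; adjusted p 0.428, 0.247, 0.761 and 0.0568). PRIM1, the catalytic subunit of primase, had 8.34 and 8.47 in MNNG arrays against 8.94 and 9.02 in untreated arrays. It fell by 0.58 ± 0.11 (1.49-fold lower, adjusted p = 2.14e-05), opposite to its partners POLA1 and POLA2.

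All 4 genes of nucleotide supply were called higher. RRM1, the large subunit of ribonucleotide reductase, had 11.29 and 11.45 in MNNG arrays against 10.39 and 10.32 in untreated arrays (1.02 ± 0.095, adjusted p = 7.91e-12), and a second RRM1 probe set gave 0.36 ± 0.29 and was not called. RRM2, the small subunit, had 11.735 and 11.738 in MNNG arrays against 11.61 and 11.47 in untreated arrays (0.20 ± 0.074, adjusted p = 0.0288). The size of the RRM2 change depended on the probe set: another gave 11.59 and 11.72 against 10.31 and 10.05, a change of 1.48 ± 0.14 (adjusted p = 8.4e-12). Thymidylate synthase, TYMS, had 12.54 and 12.52 in MNNG arrays against 12.11 and 12.12 in untreated arrays (0.41 ± 0.061, adjusted p = 4.08e-07). Thymidine kinase, TK1, for which TK6 carries 1 working allele, rose by 0.81 ± 0.12.

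Of the 5 chromatin genes, 4 rose. UHRF1, which guides methylation of newly made DNA, had 8.85 and 9.02 in MNNG arrays against 7.55 and 7.40 in untreated arrays, a change of 1.45 ± 0.098 (2.74-fold, adjusted p = 5.14e-16). The methyltransferase that it guides, DNMT1, was not called (0.16 ± 0.094). CHAF1B and CHAF1A of the histone chaperone CAF-1 rose by 0.94 and 0.54. SLBP, which binds histone mRNA, had 10.43 and 10.53 in MNNG arrays against 10.29 and 10.20 in untreated arrays. Its change was 0.23 ± 0.094 (adjusted p = 0.043), and this call was lost under 10 of the 16 alternatives tried, as was that of RRM2 under 7. With each array centred on its median, 21 members rose and 2 fell in TK6, where 4551 of all 13842 genes were called.

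**Figure D1:**
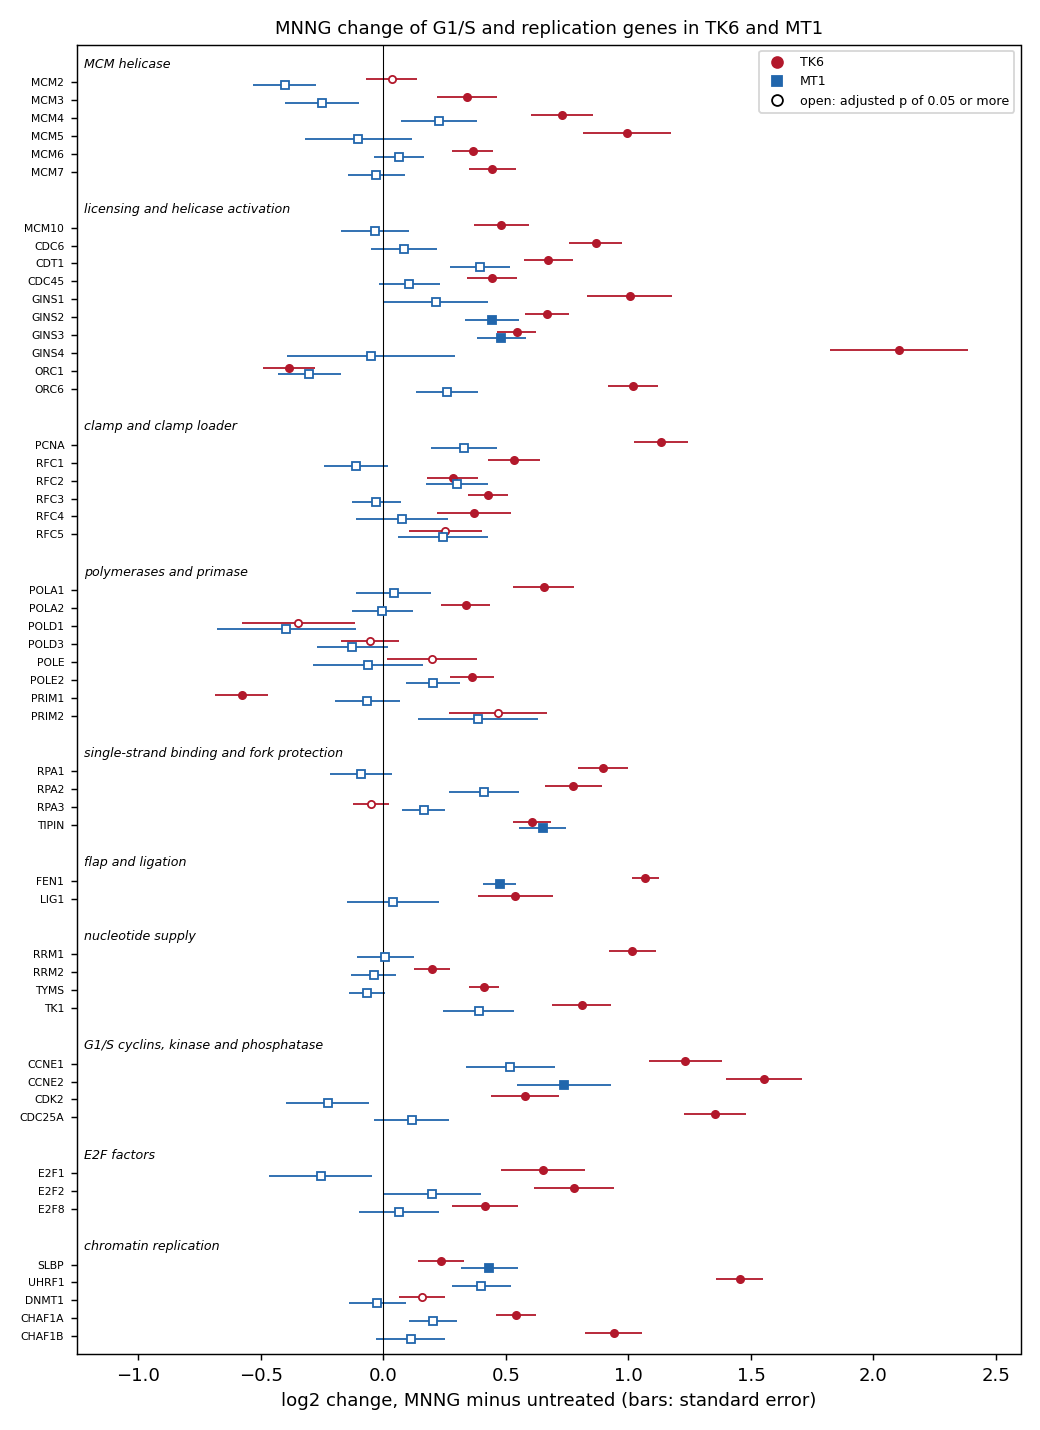
Log2 change of each of the 52 genes after MNNG (x axis, MNNG minus untreated) in TK6 (red circles) and MT1 (blue squares), grouped by role down the page, with bars for the standard error of the moderated test and open symbols for genes with an adjusted p of 0.05 or more. Filled circles lie right of 0 for 42 genes in TK6 and filled squares for 6 in MT1; PRIM1 and ORC1 are the only filled symbols left of 0.

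In MT1, the derivative of TK6 without mismatch repair, fewer members were called. Of 52, 6 rose and 0 fell, against 2.36% of all genes called higher, 1.21% lower and 3.56% in all; the median member differed by 0.079 (all genes, 0.033). At an unadjusted p below 0.05, limma gave 15 members higher and 2 lower. The 6 were the cyclin CCNE2, the fork protein TIPIN, the GINS subunits GINS3 and GINS2, the nuclease FEN1 and the histone mRNA factor SLBP. With 1 MNNG array the spread within that group could not be measured. The TK6 and MT1 arrays alone, or arrays centred on their medians, gave 0 calls in limma (13 and 4 members at an unadjusted p below 0.05), the deposited values gave 1, and leaving out MT1 untreated replicate 1 gave 3.

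CCNE2 stood at 8.35 in the MT1 MNNG array against 7.58 and 7.65 in the untreated arrays, a change of 0.74 ± 0.19 (adjusted p = 0.0209). TIPIN stood at 8.29 against 7.68 and 7.60 (0.65 ± 0.095, adjusted p = 4.31e-05), and FEN1 at 10.21 against 9.74 and 9.73 (0.47 ± 0.068, adjusted p = 3.31e-05). For each of these 3 genes the MNNG array lay above both untreated arrays. SLBP stood at 10.60 in the MNNG array against 10.16 and 10.18 in the untreated arrays (0.43 ± 0.12, adjusted p = 0.0264). GINS3 stood at 7.65 against 7.29 and 7.05 (0.48 ± 0.0995, adjusted p = 0.00352), and GINS2 at 8.78 against 8.27 and 8.39 (0.44 ± 0.11, adjusted p = 0.016). None of the 6 belonged to the MCM, clamp, polymerase or nucleotide groups.

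Of the other members followed in every array, PCNA stood at 11.72 in the MT1 MNNG array against 11.41 and 11.37 in untreated arrays, and was not called (0.33 ± 0.13, adjusted p = 0.201). CCNE1 stood at 7.40 against 6.94 and 6.83 (0.52 ± 0.18, adjusted p = 0.11), and CDC25A at 8.47 against 8.34 and 8.36 (0.12 ± 0.15). UHRF1 stood at 9.30 against 8.81 and 8.99, just short of the threshold (0.40 ± 0.12, adjusted p = 0.0511). MCM2 stood at 9.86 in the MNNG array, below both untreated arrays at 10.21 and 10.31 (-0.40 ± 0.13, adjusted p = 0.0695). TYMS, RRM2, CDC6 and E2F1 had changes of -0.066, -0.039, 0.083 and -0.26, none of them called.

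**Figure D2:**
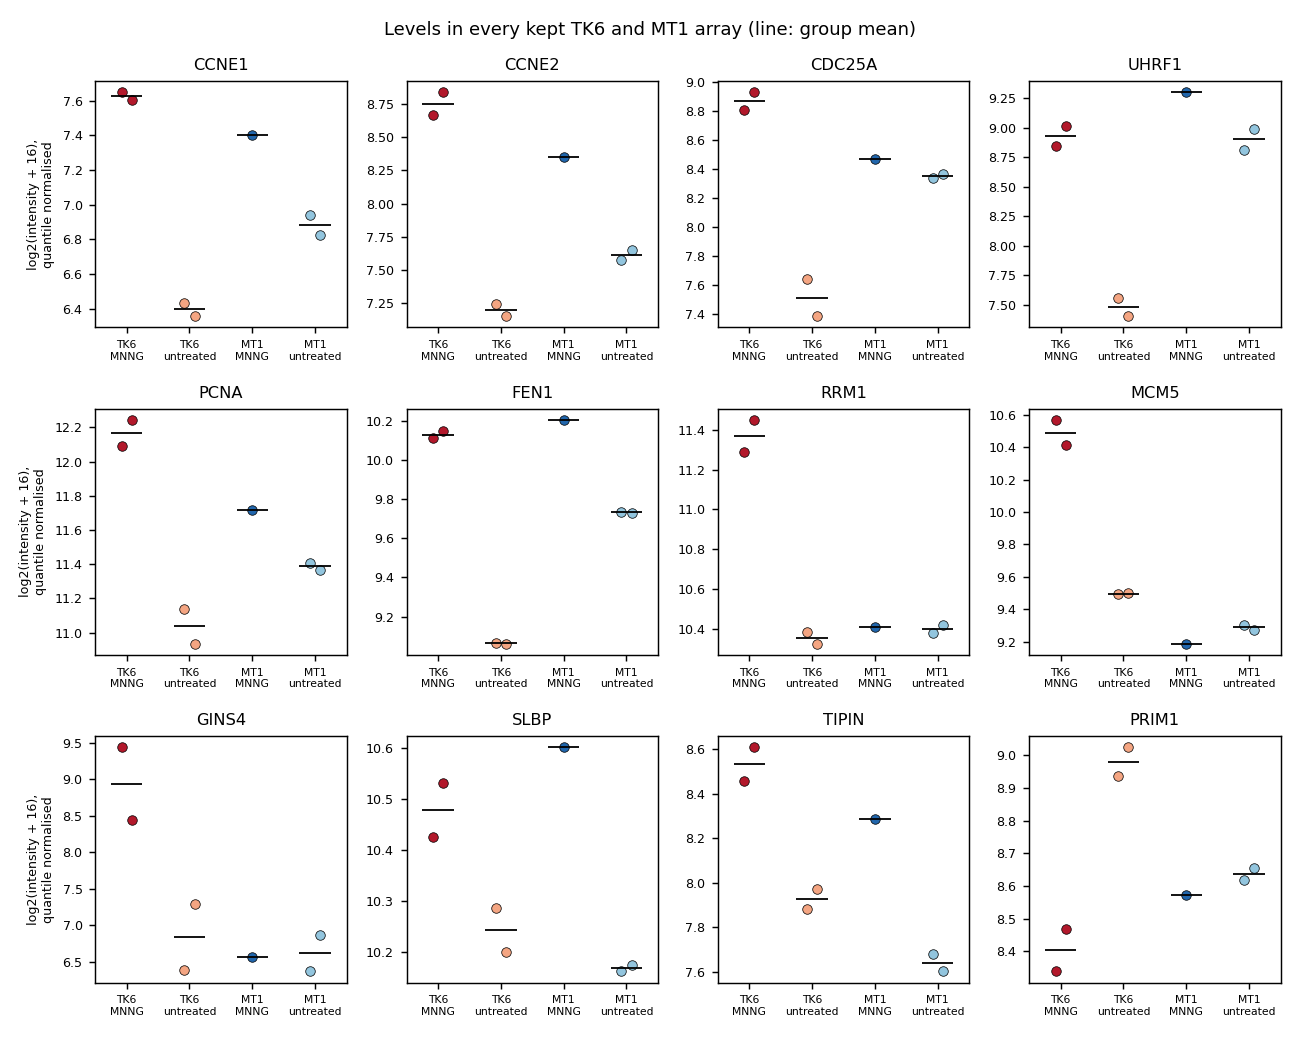
Level of 12 members (y axis, log2 of intensity plus 16, quantile normalised, scaled per panel) in each kept array of TK6 and MT1 after MNNG and untreated; points are arrays and lines are group means, with 1 array for MT1 MNNG. In TK6 the MNNG points lie above the untreated points for 11 of the 12 genes and below them for PRIM1, while for RRM1 the MT1 MNNG point at 10.41 lies between the untreated points at 10.38 and 10.42.

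The difference between the TK6 and MT1 responses was tested directly. It was called positive for 25 members and negative for 1, PRIM1, out of 52, and 46 had a value above 0, called or not; of all genes 24.7% were called, 12.2% with a higher response in TK6 and 12.5% with a lower one. The median difference was 0.45 (all genes, -0.044). The differences with the greatest size were those of GINS4 (2.16 ± 0.44, adjusted p = 0.000212), CDC25A (1.24 ± 0.20, adjusted p = 4.61e-06), MCM5 (1.09 ± 0.28, adjusted p = 0.00294), UHRF1 (1.05 ± 0.15, adjusted p = 9.25e-07), RRM1 (1.01 ± 0.15, adjusted p = 1.27e-06) and RPA1 (0.99 ± 0.16, adjusted p = 7.79e-06). All 4 genes of the cyclin, kinase and phosphatase group and 4 of 6 MCM subunits differed, with MCM2 among them (0.44 ± 0.16, adjusted p = 0.047) although neither line's own change was called.

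RRM1 had 11.29 and 11.45 in TK6 MNNG against 10.39 and 10.32 in TK6 untreated arrays, and 10.41 in MT1 MNNG against 10.38 and 10.42 in MT1 untreated arrays. RPA1 had 10.69 and 10.81 in TK6 MNNG against 9.94 and 9.78 in TK6 untreated arrays, and 9.88 in MT1 MNNG against 10.03 and 9.91 in MT1 untreated arrays. On these probe sets both genes were thus high in the TK6 MNNG arrays alone, and the other arrays of the pair overlapped. A second RRM1 probe set had 10.15 and 10.47 in TK6 MNNG against 10.295 and 9.61 in TK6 untreated arrays, which overlap. Its difference between the lines was 0.71 ± 0.455, and that of a second RPA1 probe set was 1.09 ± 0.19. GINS4 had 6.56 in the MT1 MNNG array against 6.37 and 6.86 in MT1 untreated arrays, and MCM5 had 9.19 against 9.31 and 9.27.

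The remaining 26 members were not called. For TIPIN (-0.044 ± 0.12), GINS3 (0.063 ± 0.13), RFC2 (-0.019 ± 0.16) and ORC1 (-0.083 ± 0.17) the difference was below its standard error. These p-values (0.873, 0.814, 0.962 and 0.809, adjusted) do not show that the lines responded alike. The count was 9 with the deposited values, 11 with arrays centred on their medians and 15 from the TK6 and MT1 arrays alone, and in these 3 fits no member was called negative.

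Related genes outside the 52, from lists written with earlier results of these data known, moved less uniformly in TK6. Of all genes tested, 21.6% were called higher there and 19.5% lower, against 40.4% and 21.3% of the other replication and G1/S genes. Of 47 other replication and G1/S genes, 19 rose and 10 fell; RRM2B, the ribonucleotide reductase subunit induced by p53, rose by 2.31 ± 0.11 and cyclin D3, CCND3, by 1.79 ± 0.13, while DBF4, the activator of the origin-firing kinase CDC7, fell by 1.02 ± 0.15 and the CDK subunit CKS1B by 0.97 ± 0.11. Of 18 E2F, pocket protein and inhibitor genes, 7 rose and 3 fell (38.9% and 16.7%). The CDK inhibitor CDKN1A rose by 2.95 ± 0.083 and the repressor E2F7 by 2.57 ± 0.088, while the CDK inhibitor CDKN1B fell by 1.30 ± 0.16 and E2F5 by 1.14 ± 0.074.

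Replication-dependent histones rose in 13 of 26 and fell in 1, with a median of 0.50; H2BC12 rose by 3.59 ± 0.062 and H2AC6 by 2.77 ± 0.15, and H4C4 fell by 0.45 ± 0.13. Of 47 genes of G2 and mitosis, 9 rose and 12 fell (19.1% and 25.5%, against 21.6% and 19.5% of all genes). Their median was -0.18, against -0.029 for all genes. CENPE, a motor of the kinetochore, rose by 0.82 ± 0.14 and CDK1, the mitotic kinase, by 0.53 ± 0.12, while the centrosomal kinase NEK2 fell by 1.07 ± 0.12 and the spindle checkpoint kinase BUB1 by 0.95 ± 0.12.

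In MT1 these lists gave 1 higher and 1 lower, 1 and 0, 3 and 0, and 2 and 1, in the order given. The histone H2BC12 rose there by 0.68 ± 0.076, E2F7 by 0.38 ± 0.11 and the mitotic cyclin CCNB1 by 0.32 ± 0.092, and the proliferation marker MKI67 fell by 0.70 ± 0.17. Of all genes, 2.36% were called higher and 1.21% lower in MT1, and 12.2% positive and 12.5% negative for TK6 minus MT1. TK6 minus MT1 was positive for 9, 5, 7 and 4 genes of the lists and negative for 8, 3, 1 and 7, with CDKN1A at 2.86 ± 0.13 and RRM2B at 2.17 ± 0.17.

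**Figure D3:**
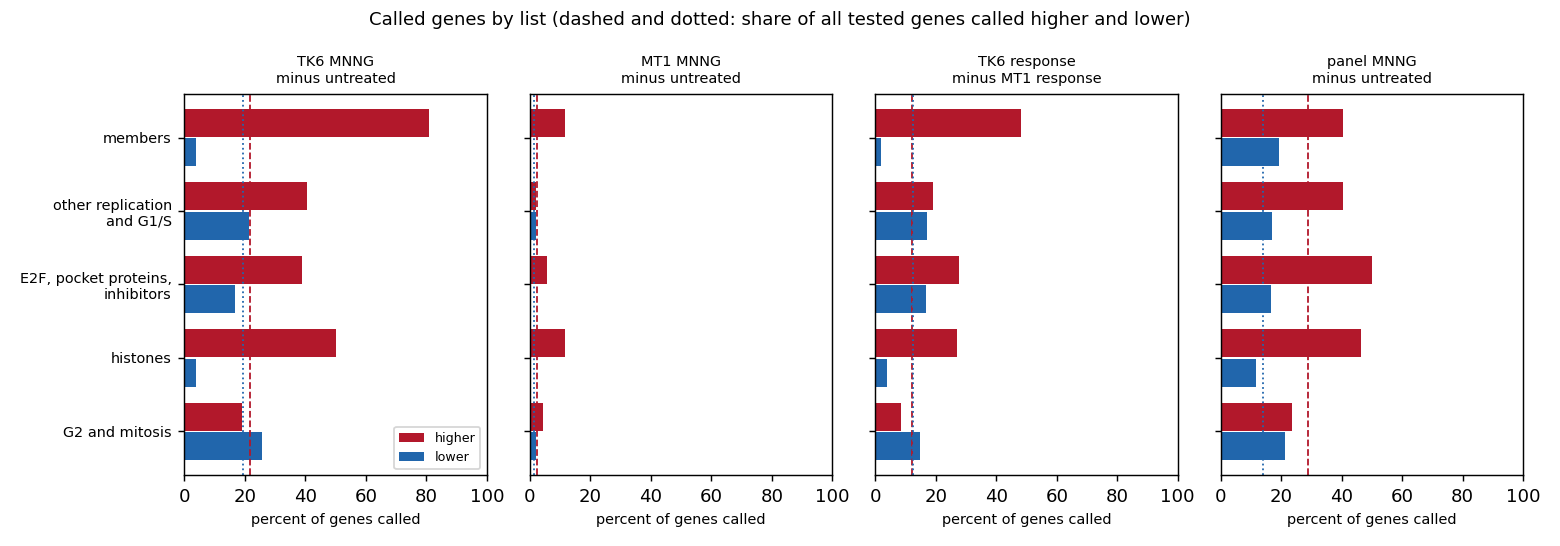
Percent of genes called higher (red bars) and lower (blue bars) in the 52 members and in 4 lists of related genes, in TK6, MT1, the difference of their responses and the panel; the dashed and dotted lines give the percent of all tested genes called higher and lower. In TK6 80.8% of members were called higher and 3.85% lower, against 40.4% and 21.3% of other replication genes and 19.1% and 25.5% of G2 and mitosis genes.

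Across the 19 panel lines, with the line as the unit, changes were small and went both ways. Of the 52 members 21 rose and 10 fell, where 42.6% of all genes were called, 28.7% higher and 13.8% lower, and the median member differed by 0.054 (all genes, 0.037). Changes of members ran from -0.28 (POLD1) to 0.27 (CCNE2). The members that rose included the cyclins CCNE2 and CCNE1, PCNA and the loader subunits RFC2 to RFC5, TIPIN, ORC6 and POLE2, and those that fell included the MCM subunits MCM2, MCM3 and MCM5, the loader subunit RFC1, CDK2, RPA1 and POLD1. The split rested on the scaling: 1 member rose and 10 fell with each array centred on its median, and 20 rose and 7 fell with the deposited values. In the centred fit 11 of 52 members were called, and 3291 of all 13842 genes. Without replicate 1 arrays 4 rose and 2 fell, but that fit also lost every line whose only kept MNNG array was replicate 1.

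CCNE2 had levels of 6.99 to 8.15 (median 7.57) over lines after MNNG, against 6.50 to 7.74 (median 7.33) untreated. The ranges overlapped, but 15 of 19 lines were higher than their own untreated cells, by 0.27 ± 0.061 on average (adjusted p = 0.00108). CCNE1 was higher in 17 lines (0.21 ± 0.045) and CDC25A in 13 (0.16 ± 0.052), while CDK2, their kinase, was lower in 16. A dimmer CDC25A probe set was called lower (-0.21 ± 0.044), another was at 0.001, and the mean of the 3 was not called (-0.02, adjusted p = 0.778). The mean of the CCNE2 probe sets, 0.11, was not called either. CDK2 had 7.93 to 8.63 (median 8.32) after MNNG against 8.26 to 8.92 (median 8.51) untreated (-0.23 ± 0.041, adjusted p = 9.31e-05), and its second probe set fell by 0.66 ± 0.050.

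Of the E2F factors, E2F2 had 6.33 to 7.50 (median 6.97) after MNNG against 6.09 to 7.16 (median 6.69) untreated and rose in the mean by 0.24 ± 0.043, with 16 lines higher. Its 2 dimmer probe sets gave -0.060 and -0.13, and the mean of all 3 was not called (0.02). E2F1 (7 lines higher) and E2F8 (13 lines higher) were not called.

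In the clamp and loader group, 5 of 6 rose and RFC1 fell. PCNA had 11.11 to 11.75 (median 11.47) after MNNG against 10.72 to 11.53 (median 11.23) untreated, higher in 16 lines (0.25 ± 0.041, adjusted p = 3.29e-05). RFC4 was higher in 18 lines (0.22 ± 0.035). RFC1, the largest subunit of the loader, was lower in 18 lines (-0.19 ± 0.029, adjusted p = 1.79e-05), the reverse of its call in TK6. A second RFC1 probe set also fell in the panel (-0.29 ± 0.037) but was not called in TK6 (0.052 ± 0.115), so the reversal rested on the brighter one.

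Of the licensing genes 5 were called higher and ORC1 fell. Among the 5 was CDT1 (0.12 ± 0.032), whose other probe set fell by 0.39 ± 0.060, and the mean of both was called lower (-0.14, adjusted p = 0.00137). ORC6 had 9.07 to 10.13 (median 9.52) after MNNG against 9.02 to 9.81 (median 9.34) untreated, with 18 lines higher (0.23 ± 0.037, adjusted p = 3.19e-05). ORC1 was lower in 18 lines (-0.16 ± 0.036), so the opposite directions of the 2 origin subunits were seen in the panel as in TK6. GINS3 rose by 0.20 and CDC45 by 0.14.

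The MCM subunits, read from their brightest probe sets, had 0 of 6 higher and 3 lower. MCM4 was not among these (0.058), but dimmer MCM4 probe sets were called lower (-0.68, -0.67 and -0.29), and another, at 0.45, was not called. A second MCM7 probe set was also called lower (-0.12 ± 0.042). MCM3 had 9.02 to 9.81 (median 9.42) after MNNG against 9.23 to 10.13 (median 9.70) untreated, lower in 16 lines (-0.25 ± 0.047, adjusted p = 0.000159). MCM2 had 9.08 to 9.94 (median 9.63) against 9.49 to 10.24 (median 9.81), lower in 17 lines (-0.22 ± 0.042, adjusted p = 0.000172). MCM5 was lower in 16 lines (-0.15 ± 0.035) although it was among the most raised members in TK6. Its untreated duplicates also differed, with a standard deviation of 0.222 between duplicates and 0.275 between lines.

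At the fork, POLE2 had 7.66 to 8.94 (median 8.35) after MNNG against 7.35 to 8.75 (median 8.08) untreated, higher in 18 lines (0.24 ± 0.037, adjusted p = 1.94e-05). POLD1, the catalytic subunit of polymerase delta, had 6.91 to 7.79 (median 7.47) after MNNG against 7.20 to 8.29 (median 7.67) untreated, lower in 18 lines (-0.28 ± 0.042, adjusted p = 8.64e-06). The standard deviation between its untreated duplicates, 0.27, was close to that between untreated lines, 0.31. Line 13 had 7.54 and 8.11 untreated and 7.66 in its kept MNNG array. Line 10 had 7.33 and 7.34 untreated and 7.18 and 7.11 after MNNG. TIPIN had 8.11 to 9.51 (median 8.94) against 8.21 to 9.08 (median 8.74), higher in 18 lines and lower in line 4 (0.26 ± 0.052, adjusted p = 0.000329). RPA2 and RPA3 were higher in 18 and 17 lines (0.21 and 0.12), and RPA1 was lower in 16, with 9.53 to 10.08 (median 9.82) after MNNG against 9.73 to 10.34 (median 9.94) untreated (-0.17 ± 0.033). FEN1 rose by 0.18 ± 0.044.

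The 4 nucleotide genes, read from their brightest probe sets, had 0 calls in limma, and 0 at an unadjusted p below 0.05. Other probe sets were called, higher for RRM2 (0.21 ± 0.045) and TK1 (0.12 ± 0.037) and lower for RRM1 (-0.25 ± 0.052), so this group depended on the probe set. TYMS had 11.64 to 12.24 (median 11.93) after MNNG against 11.64 to 12.26 (median 11.82) untreated, and RRM2 10.43 to 12.23 (median 11.40) against 10.63 to 12.28 (median 11.34). Of the chromatin genes, CHAF1A rose by 0.18 ± 0.030, with 18 lines higher, although another of its probe sets fell by 0.26 ± 0.046, and CHAF1B by 0.14 ± 0.033. UHRF1 was higher in 11 lines and lower in 8, SLBP higher in 12 and lower in 7, and neither was called.

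**Figure D4:**
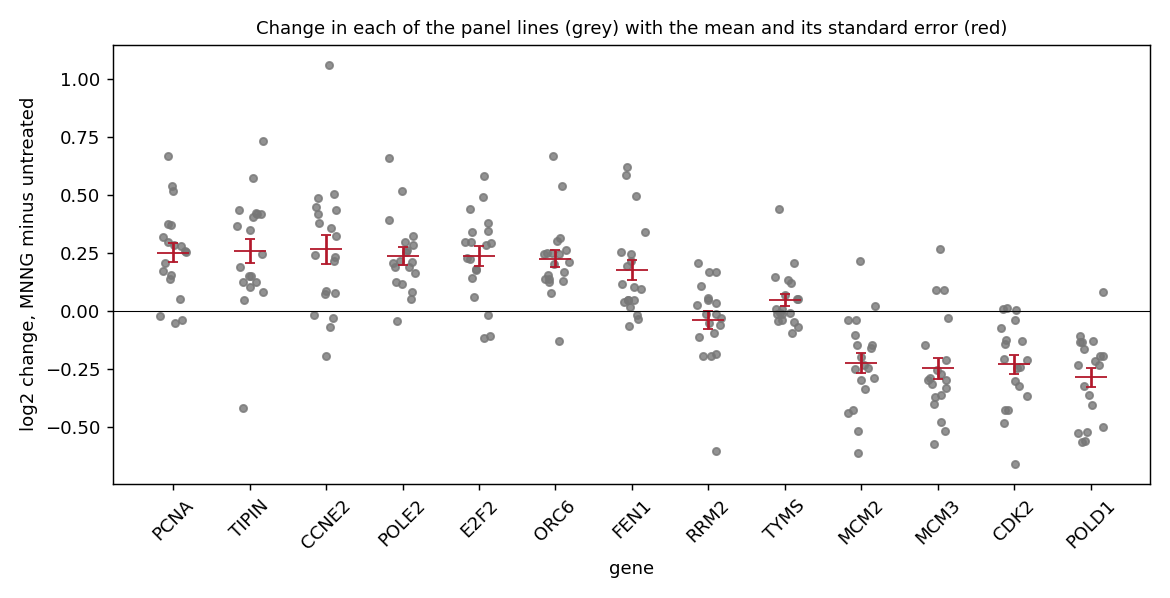
Log2 change of 13 members in each of the 19 panel lines (grey points, y axis, MNNG minus untreated) with the mean and its standard error (red). PCNA, TIPIN, CCNE2, POLE2, E2F2, ORC6 and FEN1 have means of 0.18 to 0.27, RRM2 and TYMS lie near 0, and MCM2, MCM3, CDK2 and POLD1 have means of -0.22 to -0.28.

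Single lines differed. In the model of single arrays, members were called 46 times higher and 18 times lower, in 12 of the 19 lines, and 20 members were called in no line. The share of all genes called ran from 0.0289% in line 13 to 12.8% in line 20. The same totals were not counted over all genes, so they do not set the members apart. TIPIN was called higher in 6 lines and lower in 1, FEN1 higher in 5, and GINS3 higher in 4 and lower in 1. Line 20 had 16 members higher and 0 lower (12.8% of all genes called; 25 higher and 3 lower at an unadjusted p below 0.05), with CCNE2 at 1.06 ± 0.19, TIPIN at 0.73 ± 0.095, PCNA at 0.67 ± 0.14 and POLE2 at 0.66 ± 0.11. Line 23 had 8 members higher, and line 22 had 7 higher and 1 lower, CDK2 (-0.66 ± 0.17), where 4.59% and 1.68% of all genes were called. Lines 20, 22 and 23 each had 1 MNNG array. Line 9 had 4 members higher and 1 lower (5.93% of all genes called), and line 12 had 3 higher and 2 lower (3.76% of all genes called). TIPIN was the member called in lines 1 and 15, UHRF1 in line 17 and FEN1 in line 21, all higher, where 1.91%, 1.34%, 5.27% and 1.4% of all genes were called.

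Line 4, whose untreated MGMT level of 5.12 was the lowest of the 19 and close to the bottom of the scale, had 4 members higher and 7 lower (8.97% of all genes called). GINS4 (1.71 ± 0.34), ORC6 (0.67 ± 0.13), PCNA (0.52 ± 0.14) and TYMS (0.44 ± 0.075) rose. RRM2 (-0.60 ± 0.091), E2F8 (-0.54 ± 0.16), MCM6 (-0.49 ± 0.10), SLBP (-0.42 ± 0.12), TIPIN (-0.42 ± 0.095), GINS2 (-0.41 ± 0.11) and GINS3 (-0.37 ± 0.099) fell. GINS4, ORC6 and PCNA were also among the most raised members in TK6, while the 7 that fell here were all called higher there. It too had 1 MNNG array.

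Lines 18 and 19, with both MNNG arrays and MGMT levels of 6.25 and 6.41, had 5 and 2 members lower and 0 higher (4.67% and 6.48% of all genes called; 2 and 5 higher at an unadjusted p below 0.05). MCM2 (-0.61 and -0.52) and MCM3 (-0.57 and -0.52) fell in both. Line 14, with both arrays, had 50 of 52 members above 0, with a median of 0.15 (all its genes, 0.003), but 0 were called. In that line 0.0722% of all genes were called, and at an unadjusted p below 0.05 limma gave 16 members higher and 0 lower. Its untreated replicate 2 and MNNG replicate 1 had a median intensity of 16, the lowest deposited value. That untreated array had CCNE1 at 7.02 and E2F1 at 6.00, against 8.06 and 7.00 in its duplicate, but PCNA at 11.29 against 11.01. The part of these arrays in the result was not tested.

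An F test of unequal responses over the 19 lines called 10 members, where 6.13% of all genes were called: FEN1 (adjusted p = 5.24e-07), TIPIN (2.16e-05), UHRF1 (0.000173), RRM2 (0.00251), GINS3 (0.00343), MCM2, MCM6, CDC25A, TYMS and GINS2. UHRF1 ran from -0.42 in line 18 to 0.65 in line 20, and FEN1 from -0.065 in line 18 to 0.62 in line 23. Over lines, the median Pearson correlation between the changes of 2 members was 0.29 over 1326 pairs, where members of a line share its arrays. The genes outside the members whose change was most like the mean change of the 31 called members over the 19 lines were CDC123 (r = 0.91), ZWINT (0.90), MRTO4 (0.895), KPNA2 (0.89) and NME1 (0.89).

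**Figure D5:**
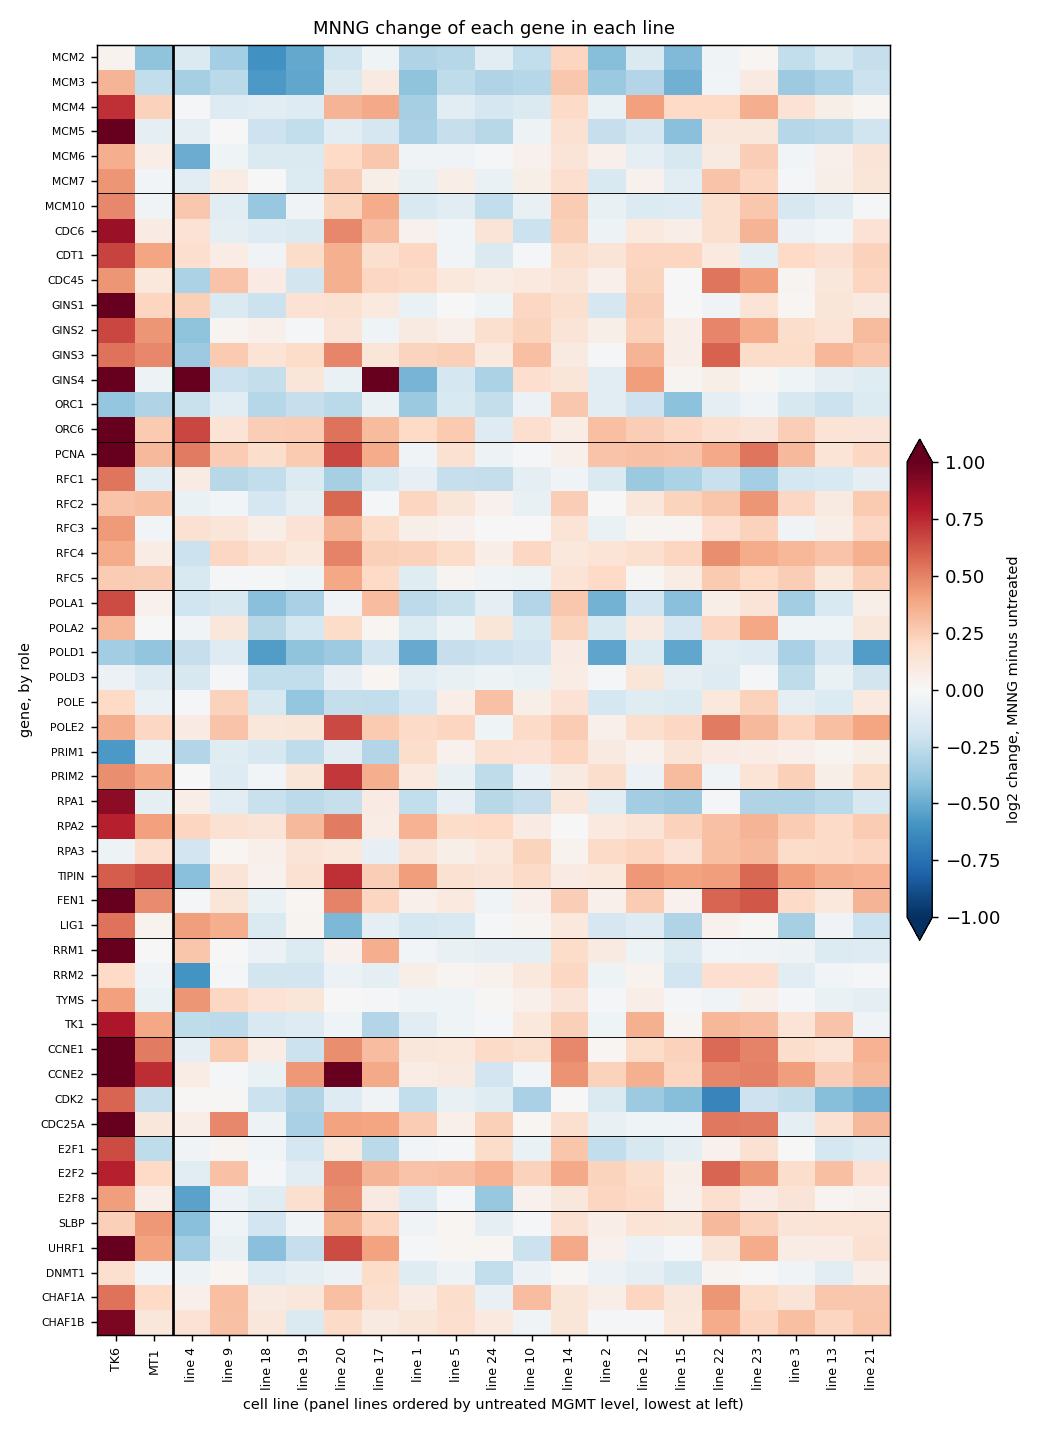
Log2 change after MNNG (colour, red higher and blue lower, cut at 1 and -1) of each of the 52 genes (rows, by role) in TK6, MT1 and the 19 panel lines (columns), the lines ordered by untreated MGMT level with the lowest at the left. TK6 is red in 47 of 52 rows, and the panel columns show both colours, with line 14 red in 50 rows and line 18 in 15. In line 14 an untreated and an MNNG array had a median intensity of 16, the lowest deposited value.

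Since MGMT removes the methyl group from guanine, the change of each gene was also related to the untreated MGMT level of its line, which ran from 5.12 to 8.07, with 14 lines above 7. A slope was called for 7 members, 6 of them positive (a higher change in lines with more MGMT), against 5.49% of all genes, 2.54% positive and 2.95% negative. They were TK1 (0.17 ± 0.046 per unit of MGMT), GINS2 (0.17 ± 0.039), RRM2 (0.15 ± 0.040), SLBP (0.15 ± 0.041), PRIM1 (0.15 ± 0.035) and RPA3 (0.11 ± 0.031), with adjusted p of 0.0143 to 0.0443, and TYMS with a negative slope (-0.13 ± 0.027, adjusted p = 0.00566). Limma called 0 members without line 4 (5 at an unadjusted p below 0.05), 0 in the 14 lines above an MGMT level of 7 (4 unadjusted), and 0 without replicate 1 or without replicate 2 arrays (9 and 7 unadjusted). Leaving out replicate 2 arrays also removes lines 4 and 17, whose only kept MNNG array was replicate 2. The count was 4 without line 13, 4 without line 18 and 13 without line 20.

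Untreated levels of all 52 members differed between the 24 panel lines by an F test, where 68.1% of all genes did. The range over lines was 4.01-fold for GINS4 (5.79 in line 12 to 7.79 in line 14), 3.55-fold for E2F8, 3.39-fold for TK1 and 3.18-fold for RRM2, and 1.45-fold for CHAF1B at the lower end. TK6 and MT1 stood outside the panel for several members. TK1 was at 7.19 in TK6 and 7.02 in MT1, below all 24 lines (7.82 to 9.58), as were CCNE1, CDK2, TIPIN and MCM5. E2F2, E2F8, RFC3 and RFC4 were above all 24 lines in both. UHRF1 in TK6 was at 7.48, below all 24 lines (8.67 to 10.00), and its TK6 MNNG arrays at 8.85 and 9.02 were within that range.

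Untreated MT1 and untreated TK6 differed in 23 members, 16 higher and 7 lower in MT1, against 25.2% of all genes (13.6% higher, 11.7% lower). UHRF1 had 8.81 and 8.99 in MT1 against 7.55 and 7.40 in TK6 (1.43 ± 0.098, adjusted p = 1.85e-15). CDC25A had 8.34 and 8.36 in MT1 against 7.64 and 7.39 in TK6 (0.84 ± 0.13), and FEN1 had 9.74 and 9.73 against 9.07 and 9.06 (0.67 ± 0.056). POLA1 had 7.74 and 7.42 in MT1 against 6.78 and 6.85 in TK6 (0.77 ± 0.12). For each of these 4 genes the MT1 and TK6 arrays did not overlap. This comparison shares its TK6 untreated arrays with that of TK6 after MNNG, in which UHRF1, CDC25A, FEN1 and POLA1 changed by 1.45, 1.35, 1.07 and 0.65.

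POLE2 (0.62 ± 0.090) and CHAF1B (0.51 ± 0.12) were higher in MT1 too. RFC1 had 7.34 and 7.37 in MT1 against 8.50 and 8.37 in TK6 (-1.08 ± 0.11, adjusted p = 9.54e-11), and CDT1 had 7.48 and 7.73 against 8.65 and 8.60 (-1.02 ± 0.0999, adjusted p = 5.5e-11). DNMT1 had 9.73 and 9.56 in MT1 against 10.24 and 10.05 in TK6 (-0.50 ± 0.094). RFC3, PRIM1, RPA3 and TIPIN were lower in MT1 by smaller amounts (-0.42, -0.34, -0.30 and -0.29). The count of called members was 12 with the deposited values, 8 with arrays centred on their medians, 13 from the TK6 and MT1 arrays alone, 15 without MT1 untreated replicate 2 and 14 without TK6 untreated replicate 2.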

How the data were processed

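Per the submitters' processing notes, the authors summarised the probe sets with PLIER; the deposited values are intensities on a linear scale, from 16 to 65535, and the version of PLIER is not given in the sources used here. Values were transformed as log2 of intensity plus 16. Array medians then differed by 1.33, more than 0.2, so arrays were quantile normalised with limma 3.58.1 (R 4.3.3). Of 54675 probe sets, 41097 had a single symbol, 1801 several and 11777 none. Each of 19775 genes was read from its brightest probe set on average, and genes in the lowest 30% by mean level were not tested.

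All adjusted p-values come from limma with a mean-dependent prior spread and Benjamini-Hochberg adjustment over 13842 genes, called below 0.05. In the panel, duplicate arrays were averaged, with lines as blocks. TK6, MT1, their differences and the F tests came from 1 model with a mean per line and condition; slopes were fitted over 19 lines. For each comparison, the up to 6 called members with the greatest change each way and 11 fixed members were followed in every array or as a range over lines. Of each related list, up to 2 called genes each way were named. The members and all lists, B-cell and other markers included, were chosen with earlier results of these data known. The fits were tested on simulated data. Promoters are RefSeq windows (GRCh38.p14), the first per symbol. Python 3.11.15 and matplotlib 3.10.9 drew the figures. Alternatives are given at the end. The number of arrays limits the precision.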

Additional observations from a re-analysis of the deposited data

Results flagged for a closer look

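For 26 of the 52 genes the MNNG response of TK6 and that of MT1 differed in limma's test of the difference itself (TK6 minus MT1, log2 units, adjusted p below 0.05 over 13842 genes), where 24.7% of all genes were called, 12.2% with a higher response in TK6 and 12.5% with a lower one. MT1 had 1 MNNG array. Among the regulators of S-phase entry these were CDC25A (1.24), E2F1 (0.91), CCNE2 (0.82), CDK2 (0.81) and CCNE1 (0.71). Among helicase and licensing genes they were GINS4 (2.16), MCM5 (1.09), GINS1 (0.79), CDC6 (0.78), ORC6 (0.76), MCM3 (0.59), MCM10 (0.51), MCM7 (0.47) and MCM2 (0.44). At the fork they were RPA1 (0.99), PCNA (0.8), RFC1 (0.65), POLA1 (0.61), FEN1 (0.6) and RFC3 (0.46). For nucleotide supply they were RRM1 (1.01) and TYMS (0.48), and for chromatin UHRF1 (1.05), CHAF1B (0.83) and CHAF1A (0.34). PRIM1 alone had a lower response in TK6 (-0.51). Each value came from the brightest probe set of its gene. Further sets were not called for RFC1 (0.29), CDK2 (0.38 and -0.32), MCM10 (0.57 and -0.084) and RFC3 (0.028 and -0.091). Nor were they for CCNE2 (0.66), E2F1 (0.64), RRM1 (0.71), MCM5 (1.12), MCM7 (0.54) and CHAF1A (0.83 and 0.36). Further sets of CDC25A, CDC6, FEN1, RPA1, GINS4 and TYMS were called higher, but others of GINS4 (0.29) and TYMS (-0.10) were not. A further set of RRM2, not listed above, was called (0.95). The smallest difference called was that of CHAF1A.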

How the results depend on the processing

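Counts are of members called by limma; the reasons for the shifts below were not tested. With no array left out the panel had 43 called (15 higher, 28 lower), and the counts were 3 for TK6, 0 for MT1, 0 for TK6 minus MT1, 0 for untreated MT1 minus TK6 and 0 for the MGMT slope (at an unadjusted p below 0.05, 7, 4, 4, 1 and 2), and 1 for each F test. There the signs of these values turned: in the panel TIPIN -1.02, POLE2 -0.95, ORC6 -0.83, CDK2 0.26, CCNE1 -0.47, CDC25A -0.25, TYMS -0.68 and SLBP -1.8, in MT1 TIPIN -0.28, FEN1 -1.26 and SLBP -1.95, for TK6 minus MT1 PRIM1 0.73, and for slopes GINS2 -0.57, PRIM1 -0.01 and TYMS 0.17. With the deposited values the counts were 1 for MT1, 9 for TK6 minus MT1, 12 for untreated MT1 minus TK6, 0 for response differences between lines (13 unadjusted) and 2 for slopes; the median of all genes stood at 0.31 in MT1 and 0.12 in TK6. With each array centred on its median the counts were 11 in the panel, 23 in TK6, 0 in MT1 (4 unadjusted), 11 for TK6 minus MT1, 8 for untreated MT1 minus TK6, 3 for response differences and 3 for slopes; RRM2 in TK6 turned to -0.07 and the slopes of GINS2, RRM2, SLBP and RPA3 to -0.01, -0.04, -0.04 and -0.07, while the median of all genes stood at -0.13 in MT1. Averaging all probe sets of a gene turned CDT1 (-0.14) and CDC25A (-0.02) in the panel and CDT1 in TK6 (-0.15). Without the line block 11 members and 2097 of all genes were called in the panel. The TK6 and MT1 arrays alone gave 0 for MT1 (13 unadjusted), 15 for TK6 minus MT1 and 13 for untreated MT1 minus TK6. Lines above an MGMT level of 7 gave 0 slopes (4 unadjusted), with RRM2 at -0.06.

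Leaving out 1 replicate or line at a time gave 6 to 32 members in the panel (6 without replicate 1), 38 to 40 in TK6, 3 to 6 in MT1, 18 to 25 for TK6 minus MT1, 14 to 20 for untreated MT1 minus TK6 and 0 to 13 for slopes; the F tests were not refitted without a replicate, since at most 1 array per line and condition then remains. Where the labels share replicate numbers, same-numbered arrays did not deviate together (median r = -0.045 over 9 lines, range -0.62 to 0.14). The main fits did not use the numbers as pairs. Duplicates alone cannot tell whether a number marks a shared culture or batch. With a replicate block the counts were 32 in the panel, 45 in TK6, 8 in MT1, 29 for TK6 minus MT1 and 24 for untreated MT1 minus TK6. Testing each probe set alone was chosen after seeing the data and gave 43 in TK6 and 31 in the panel. Other pseudocounts, filters and no trend kept every count within 1.5 times of that reported. Values near the bottom of the scale, 5, as for GINS4 and MGMT in some lines, understate differences.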

Other observations

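In the panel, where 28.7% of all genes were called higher and 13.8% lower, the lists of related genes gave the following counts. Of 47 other replication and G1/S genes 19 rose and 8 fell (40.4% and 17.0%) over the 19 lines, with the pyrophosphatase DCTPP1, which clears modified nucleotides, at 0.35 ± 0.036 and the chromatin remodeller HELLS at 0.32 ± 0.039, and the PCNA unloader ATAD5 at -0.33 ± 0.037. Of 18 E2F, pocket protein and inhibitor genes 9 rose and 3 fell; E2F7 rose by 0.34 ± 0.070 and CDKN1A by 0.28 ± 0.085, and TFDP1, the dimer partner of E2F factors, fell by 0.13 ± 0.030. Replication-dependent histones rose in 12 and fell in 3 of 26. Of 47 genes of G2 and mitosis 11 rose and 10 fell (23.4% and 21.3%), with MKI67 at -0.41 ± 0.044 and the spindle factor TPX2 at -0.30 ± 0.043.

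Untreated, line 1 had the highest level of the 24 panel lines for 24 of the 52 members, and line 12 and line 7 had the lowest for 12 and 13. The same was not counted over all genes, so these counts do not set the members apart. Line 7 kept no MNNG array.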
